A study of Homo sapiens with 36 samples.

Results

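Molecular chaperones help newly made and damaged proteins to fold, and several of them are switched on by heat shock factor 1 (HSF1) when unfolded protein accumulates. HSP70 proteins bind exposed stretches of a client and release it on exchange of nucleotide, with J-domain proteins delivering the client and BAG and HSP110 proteins driving the exchange. HSP90 takes over partly folded kinases and steroid receptors with a set of co-chaperones, the ring-shaped chaperonin CCT folds actin and tubulin, and HSPA9, HSPD1, HSPE1, DNAJA3 and TRAP1 fold proteins imported into mitochondria. The 48 genes described here are the cytosolic and mitochondrial chaperones with their transcription factors and co-chaperones, listed by name. They were 48 of the 58219 genes listed in the RNA data and of the 43582 listed in the ribosome footprint data.

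The cells were WiT49, an established line from an anaplastic Wilms tumor, a childhood kidney cancer, and all results therefore come from 1 line. They received 2 nM actinomycin D (actD), a DNA-binding drug that inhibits transcription, or its vehicle dimethyl sulfoxide (DMSO). How far transcription was inhibited at this dose was not tested. Treatment lasted 6 h, 72 h or 2 weeks, and the 2-week groups went through 2 cycles of 7 days, exposed on 3 days and left in drug-free medium on 4. Total RNA and ribosome footprints, the fragments that translating ribosomes shield from nuclease, were sequenced from 3 libraries per group, 36 in all. The labels do not say that these came from separate cultures, so p-values measure the spread between libraries, which may be technical. The labels of the 2-week RNA libraries conflict, since each title states the treatment that the matching library name does not. The library names, actd or dmso, are used below, and no direction there can be tied to the drug.

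RNA libraries held 40221994 to 69240041 counts and footprint libraries 152556 to 1281039, of which only 362 to 4533 fell in the 48 genes. Levels are given below in CPM, the count of a gene relative to the TMM-adjusted size of its library, and are compared only within 1 assay and time point. The RNA of the 72 h libraries held IGF2, a gene that Wilms tumors express highly, at 1481 to 1815 CPM and WT1 at 3.77 to 10.1 CPM, whereas SIX2, SALL1, CITED1, PAX2 and EYA1, other genes of the nephron progenitor, stayed at or below 0.765 CPM. The leukocyte gene PTPRC and the endothelial genes PECAM1 and CDH5 were at or below 0.42 CPM in the same libraries. Some libraries stood apart for the chaperone genes. DMSO replicate 3 of the 72 h RNA lay nearer to the mean of the actD libraries than to that of the other DMSO libraries in 33 of 47 tested genes (70.2%, against 52% of all genes tested). DMSO replicate 3 of the 72 h footprints, the shallowest library, did so in 21 of 27 (77.8%, against 40.9%). In the 2-week RNA, the library named actd replicate 1 lay nearer to the libraries named dmso in 36 of 47 (76.6%, against 52.1%). At 6 h, RNA of DMSO replicate 3 and of actD replicate 2 each lay nearer to the other group in 34 of 48 genes (70.8%, against 52.7% and 49.3% of all genes). In the 2-week footprints, actD replicate 1 did so in 14 of 20 (70%, against 64.8%). In the 6 h footprints, actD replicate 3 did so in 14 of 19 (73.7%, against 67.5%). Both of these footprint shares were near those of all genes. Whether any library carries the label of the other group was not tested and the labels were taken as given. The libraries named here were singled out on the values of the chaperone genes themselves. Counts given below without such a library can therefore rise more for these genes than for all genes. They are descriptions only and no support for a change.

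Before the levels, the promoters are shown, because the DNA sequence that HSF1 binds, the heat shock element, is the feature that classical members of this group are known to share. It consists of inverted 5-base units, and the form searched was GAANNTTCNNGAA or TTCNNGAANNTTC, where N is any base, on both strands in the 250 bases before each start site. Of the 48 genes, 43 had at least 1 window in the RefSeq promoter table (GRCh38.p14), and 6 of these (14.0%) held the 3-unit form, against 0.557% of the 27305 genes in the table. They were CHORDC1, DNAJB6, HSP90AA1, HSP90AB1, HSPA8 and HSPD1. The 2-unit form GAANNTTC or TTCNNGAA, which lies within the longer one, was present in 17 of the 43 (39.5%) against 14.0% of all genes. The 8 stretches with the 3-unit form follow 5′ to 3′ on the strand of the gene, with the matching bases in capitals.
CHORDC1: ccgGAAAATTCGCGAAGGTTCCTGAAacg
DNAJB6: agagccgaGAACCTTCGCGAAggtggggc
HSP90AA1: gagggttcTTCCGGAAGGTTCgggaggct
HSP90AB1, distal: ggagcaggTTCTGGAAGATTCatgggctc
HSP90AB1, proximal: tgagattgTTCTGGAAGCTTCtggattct
HSPA8, distal: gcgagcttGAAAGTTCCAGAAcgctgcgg
HSPA8, proximal: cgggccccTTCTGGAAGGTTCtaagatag
HSPD1: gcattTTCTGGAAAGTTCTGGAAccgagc
The stretches lie at chr11:90223084-90223112 (CHORDC1, minus strand), chr7:157336865-157336893 (DNAJB6, plus strand), chr14:102087112-102087140 (HSP90AA1, minus strand), chr6:44247770-44247798 and chr6:44247823-44247851 (HSP90AB1, plus strand), chr11:123062346-123062374 and chr11:123062171-123062199 (HSPA8, minus strand) and chr2:197500062-197500090 (HSPD1, minus strand). Of the 8, 5 overlapped an exon annotated in GENCODE release 29, where exons of any gene on either strand were counted. The HSPD1 stretch lies within the annotated span of HSPE1 (chr2:197499994-197503457, plus strand). HSPE1 is nevertheless counted as a gene without the 3-unit form, since only bases before a start site were searched. A match of these letters is a description and not evidence that HSF1 was bound in these cells.

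As a group, the 48 genes took a smaller part of the protein-coding counts after 72 h of actD than after DMSO. In RNA the share was 1.04%, 1.13% and 1.22% in the 3 actD libraries and 1.89%, 1.95% and 1.17% in the 3 DMSO libraries. In footprints it was 1.00%, 1.15% and 1.62% with actD and 3.58%, 3.62% and 1.35% with DMSO. In both assays, DMSO replicate 3 was the library that fell among the actD values. At 6 h the RNA shares overlapped, at 1.69% to 1.96% with actD and 1.80% to 1.97% with DMSO. At 2 weeks the RNA share was 1.41%, 1.01% and 1.01% for the name actd and 1.38%, 1.40% and 1.31% in those named dmso, and the footprint share was 1.99%, 1.37% and 1.25% with actD and 1.61%, 2.04% and 1.97% with DMSO. Replicate 1 was here the high library of the actd-named RNA and of the actD footprints.

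**Figure D1:**
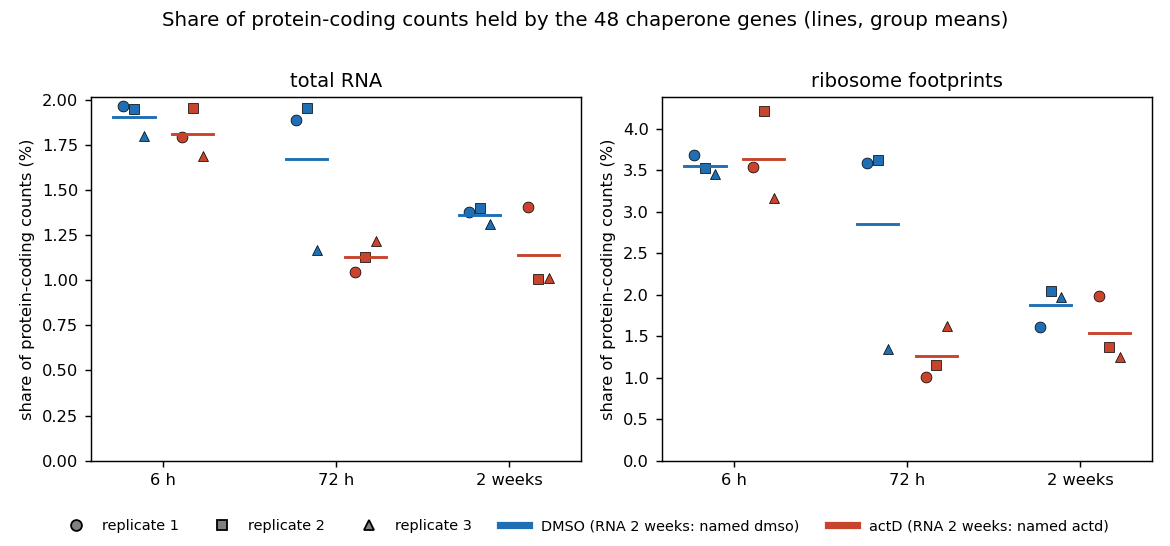
Share of protein-coding counts (y axis, percent) held by the 48 chaperone genes in each library, by treatment time (x axis), for total RNA (left) and ribosome footprints (right); marker shapes give the replicate number and lines the group means. At 72 h, 2 of 3 DMSO libraries lie above every actD library in both assays, and DMSO replicate 3 (1.17% in RNA, 1.35% in footprints) lies among the actD libraries.

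After 6 h of actD, the RNA of the chaperone genes was close to that of the DMSO libraries. None of the 48 genes, all of which could be tested, passed an adjusted p of 0.05 in edgeR's quasi-likelihood test, and 0% of the 22669 genes tested did. DESeq2 called none of the 48 either. At an unadjusted p under 0.05 there were 4 (8.33%, against 8.21% of all genes), namely HSPB8 and DNAJB4 higher and VCP and STUB1 lower. The median log2 fold change of the 48 was −0.05, beside 0.02 for all genes, and 31 lay below 0. The groups did not overlap in 2 genes that were higher with actD, DNAJB2 and HSPB8 (against 7.66% of all genes), and in 4 that were lower (against 8.17%). Without DMSO replicate 3, a library singled out on these same genes, 22 of the 48 were lower without overlap, against 14.6% of all genes. Without actD replicate 1, 8 were higher without overlap, against 12.5% of all genes, and without DMSO replicate 2 there were 6, against 12.1%. None was called in any of these.

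HSPB8, a small heat shock protein that works with BAG3 in clearing aggregates, had the lowest p of these genes at 6 h. Its RNA stood at 6.50, 8.505 and 8.19 CPM with actD and at 5.44, 4.92 and 4.55 CPM with DMSO, a log2 fold change of 0.64 (SE 0.17, adjusted p = 0.433). VCP, the ATPase that pulls ubiquitin-tagged proteins out of complexes and membranes, was at 262, 293 and 169 CPM with actD and at 384, 359 and 319 CPM with DMSO. Its log2 fold change was −0.55 (SE 0.20, adjusted p = 0.568). Every actD library was thus above every DMSO library for HSPB8 and below for VCP, without either gene passing the test. STUB1, the ubiquitin ligase CHIP that binds HSP70 and HSP90, was at 29.1, 35.6 and 34.1 CPM against 39.4, 39.2 and 41.1 CPM (log2 −0.28). HSPA4, an HSP110 protein, was at 406, 423 and 312 CPM against 473, 499 and 437 CPM (log2 −0.31), and HSF1 at 32.1, 32.1 and 33.4 CPM against 38.6, 38.0 and 34.2 CPM (log2 −0.18). DNAJB2, a J-domain protein, was at 26.0, 25.1 and 21.82 CPM against 21.5, 20.0 and 21.78 CPM (log2 0.20), so that its groups were barely separate.

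The genes that a heat shock response is known to raise most did not pass the test at 6 h. HSPA1A and HSPA1B, the inducible HSP70 genes, lie next to each other on chromosome 6 (chr6:31815464-31817946 and chr6:31827735-31830255), and as near-identical copies their counts can be split between them, so their values are uncertain. HSPA1A was at 1.17 to 1.79 CPM with actD and 1.18 to 1.68 CPM with DMSO, and HSPA1B at 2.08 to 2.49 and 2.12 to 2.84 CPM. HSPA8, the constitutive HSP70, was at 2625 to 3503 CPM with actD and at 3054 to 3283 CPM with DMSO. The log2 fold changes were 0.07 (SE 0.27) for HSPA1A, −0.09 (SE 0.20) for HSPA1B and −0.01 (SE 0.15) for HSPA8. For DNAJB1, the J-domain partner of inducible HSP70, the value was 0.05 (SE 0.19). It was 0.13 (SE 0.12) for DNAJA1, −0.23 (SE 0.15) for HSPH1, −0.05 (SE 0.11) for BAG3 and 0.12 (SE 0.17) for HSP90AA1. The groups overlapped for all of these 8 genes. HSPA9, HSPD1, HSPE1, HSP90AB1, HSPB1, STIP1, CDC37, FKBP5, TCP1, CCT2 and TRAP1 had log2 fold changes between −0.24 (HSP90AB1) and 0.38 (HSPE1), and their groups overlapped too.

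After 72 h, the RNA of most chaperone genes was lower with actD than with DMSO, led by the mitochondrial chaperones HSPD1, HSPA9 and TRAP1, the constitutive HSP90 and HSP70 genes HSP90AB1 and HSPA8, and VCP. The median log2 fold change over the 47 genes tested was −0.46, beside 0.02 for all genes, and 37 lay below 0. No single gene passed an adjusted p of 0.05 in edgeR's test, where 0.00472% of all genes (1 of 21195) did. DESeq2 called 6 of the 47, all lower (HSPD1, HSPA9, TRAP1, HSP90AB1, CCT3 and VCP), against 2.87% of all genes, and 1 edgeR fit over the 3 time points called these and HSPA8, against 4.89% of all genes. At an unadjusted p under 0.05 there were 14 genes (29.8%, against 13.1% of all genes), and all 14 were lower. The groups did not overlap in 11 genes that were lower with actD, against 10.3% of all genes, and in 1 that was higher, DNAJB2, against 10.5%.

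These counts turned on DMSO replicate 3, which was singled out on the values of these same genes. Leaving it out could be expected to separate more of them, and the shares of all genes were not selected in that way. Without this library, 30 of the 47 genes were lower without overlap, against 18.9% of all genes, and 1 was higher, against 19.7%. At an unadjusted p under 0.05 there were then 23 genes lower and 1 higher, against 16.7% of all genes, the median log2 fold change was −0.53, and edgeR's smallest adjusted p over the 47 was 0.0838. Leaving out actD replicate 3 instead gave 20 genes lower without overlap, against 18.3% of all genes. The mitochondrial ribosomal RNAs took 28.2% ± 3.86 (SD, n = 3) of the RNA counts with actD at 72 h and 19.1% ± 3.51 with DMSO, and within the DMSO group replicate 3 had the lowest share, 15.5%. The part of this shift in the chaperone values was not tested. In bulk RNA, fewer cells making a transcript and less transcript per cell cannot be told apart.

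**Figure D2:**
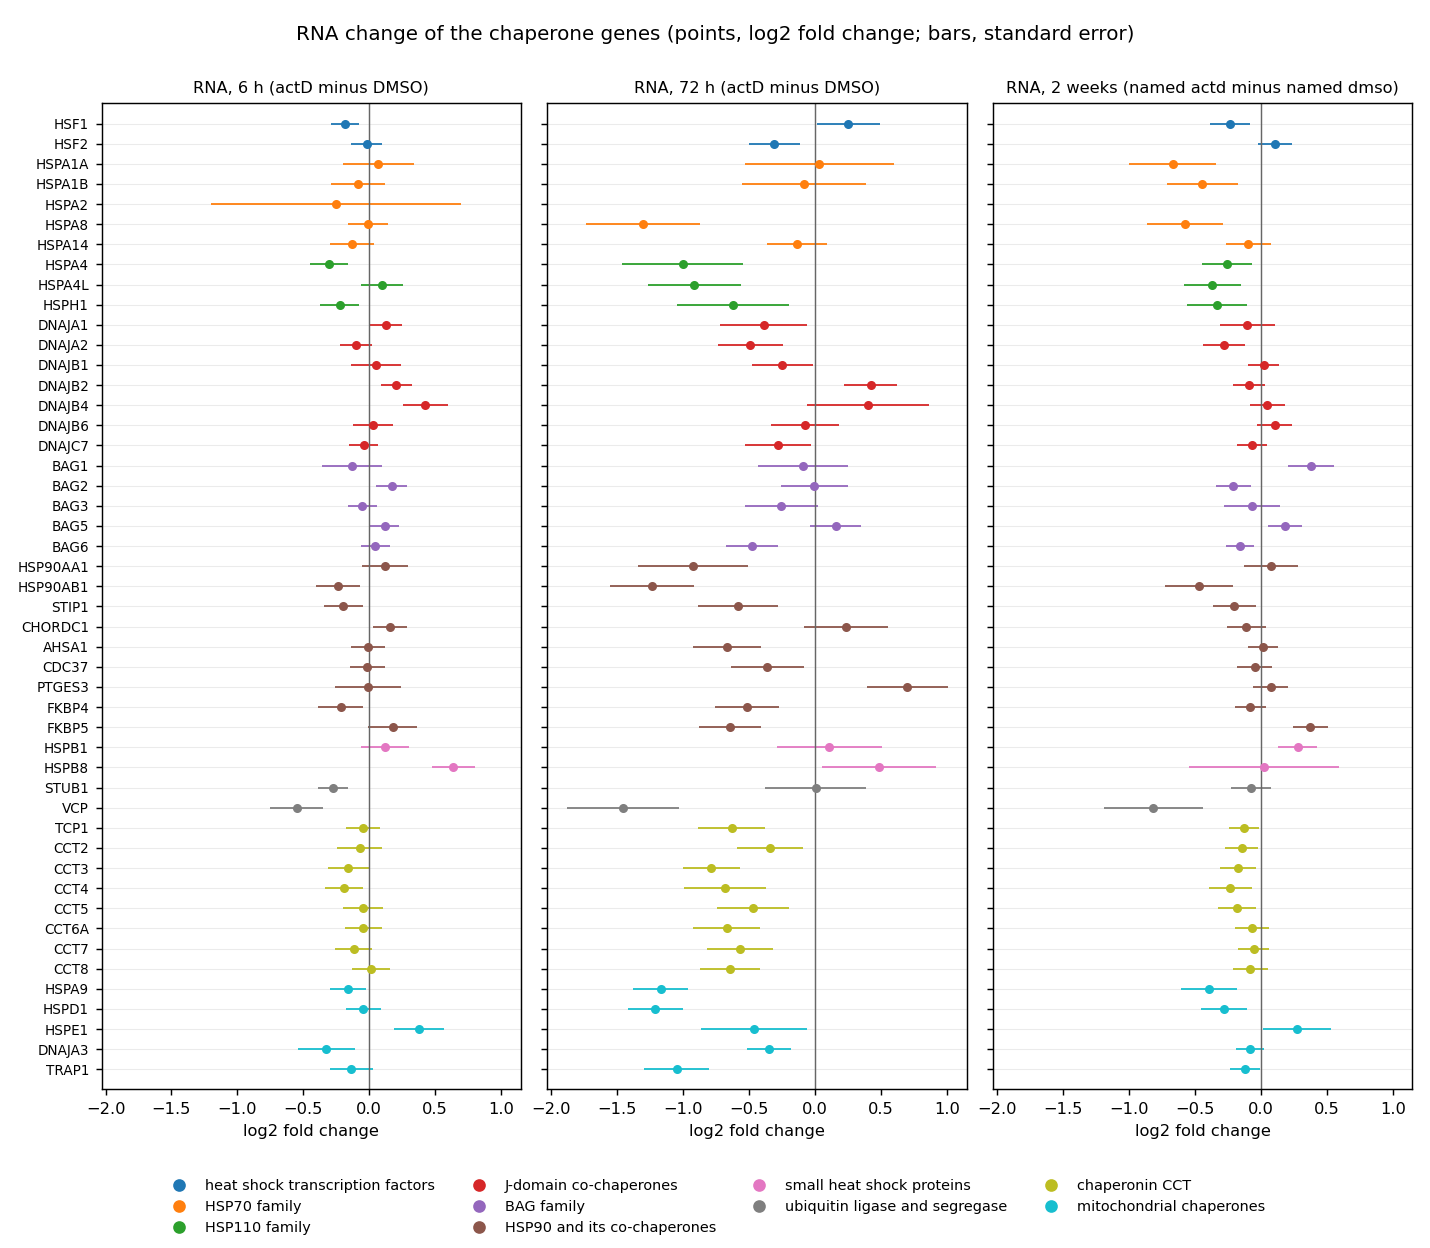
Log2 fold change in RNA (x axis) of each chaperone gene (y axis, colored by role) at 6 h, 72 h and 2 weeks, with its standard error as a bar; the 2-week panel is named actd minus named dmso. At 72 h 37 of 47 points lie left of 0, all 8 CCT subunits and all 5 mitochondrial chaperones among them, while at 6 h most bars reach 0.

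All 5 mitochondrial chaperones had log2 fold changes below 0 at 72 h, and none passed edgeR's adjusted threshold. In 4 of the 5 the groups did not overlap, against 10.3% of all genes lower. HSPD1 (HSP60, ENSG00000144381, chr2:197486581-197516737), the mitochondrial chaperonin, was at 206, 241 and 232 CPM with actD and at 551, 585 and 437 CPM with DMSO. Its log2 fold change was −1.21 (SE 0.21, adjusted p = 0.19), and every actD library lay below every DMSO library. HSPA9 (mortalin, ENSG00000113013, chr5:138553756-138575724), the mitochondrial HSP70, was at 158, 174 and 224 CPM with actD and at 407, 406 and 440 CPM with DMSO. The log2 fold change was −1.17 (SE 0.21, adjusted p = 0.196), and here DMSO replicate 3 was the highest DMSO library and not the lowest. TRAP1 (ENSG00000126602, chr16:3651639-3717597), the mitochondrial HSP90, was at 25.0, 36.05 and 44.0 CPM against 73.3, 80.0 and 64.2 CPM, a log2 fold change of −1.05 (SE 0.24, adjusted p = 0.244). DNAJA3, the mitochondrial J-domain protein, was at 37.0, 41.8 and 41.4 CPM against 49.98, 51.6 and 51.6 CPM (log2 −0.35, SE 0.17). HSPE1 (HSP10), the co-chaperonin of HSPD1 that starts from the shared promoter region on the other strand, was at 197, 133 and 90.0 CPM against 269, 204 and 104 CPM (log2 −0.46, SE 0.40), and its groups overlapped.

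HSP90AB1 (ENSG00000096384, chr6:44246166-44253888), the constitutive cytosolic HSP90, had the highest RNA level per kilobase of exon of the 48 genes in the DMSO libraries at 72 h, at 398 CPM per kilobase, ahead of HSPA8 at 357. Its level was 369, 423 and 719 CPM with actD and 1246, 1375 and 936 CPM with DMSO, a log2 fold change of −1.23 (SE 0.32, adjusted p = 0.263). All 3 actD libraries lay below all 3 DMSO libraries. The inducible HSP90AA1 was at 359, 405 and 303 CPM against 767, 970 and 291 CPM (log2 −0.93, SE 0.42), so that DMSO replicate 3 was the lowest of the 6 libraries, and without it the log2 fold change was −1.29. Among the co-chaperones, STIP1 (HOP), which links HSP70 to HSP90, had a log2 fold change of −0.58 (SE 0.30), the ATPase activator AHSA1 one of −0.67 (SE 0.26), the kinase adaptor CDC37 one of −0.36 (SE 0.28), and the immunophilins FKBP4 and FKBP5 −0.52 (SE 0.24) and −0.65 (SE 0.24). FKBP5 was the one of these 5 whose groups did not overlap, at 30.2, 32.3 and 25.7 CPM with actD against 50.8, 54.0 and 33.2 CPM with DMSO.

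PTGES3 (p23), which stabilizes the closed form of HSP90, stood against this direction. Its RNA was at 533, 229 and 395 CPM with actD and at 245, 229 and 239 CPM with DMSO, with a log2 fold change of 0.70 (SE 0.31, adjusted p = 0.39), and actD replicate 2 overlapped the DMSO libraries. DNAJB2, which brings ubiquitylated clients to the proteasome, was at 13.2, 15.9 and 13.5 CPM with actD and at 9.80, 10.5 and 11.5 CPM with DMSO (log2 0.42, SE 0.20), the gene with separated groups on the higher side. HSF1 itself was at 17.9, 28.0 and 26.4 CPM against 18.4, 23.3 and 19.0 CPM (log2 0.25, SE 0.24), while HSF2, a second heat shock factor, was lower without overlap at 19.4, 18.1 and 18.9 CPM against 26.6, 20.7 and 22.5 CPM (log2 −0.31, SE 0.19). The small heat shock proteins HSPB1 and HSPB8 had log2 fold changes of 0.11 (SE 0.40) and 0.48 (SE 0.43). Without DMSO replicate 3 they were −0.26 (SE 0.17) and 0.87 (SE 0.42).

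In the HSP70 system, the abundant HSPA8 and the HSP110 genes were lower at 72 h. With all libraries, the values of the inducible genes HSPA1A and HSPA1B lay within 1 SE of 0. HSPA8 (ENSG00000109971, chr11:123057489-123063230) was at 569, 850 and 684 CPM with actD and at 2416, 2037 and 741 CPM with DMSO, a log2 fold change of −1.30 (SE 0.43, adjusted p = 0.304). DMSO replicates 1 and 2 lay far above the actD libraries and DMSO replicate 3 among them, and without that library the log2 fold change was −1.67 (SE 0.23, adjusted p = 0.0855). HSPA1A stood at 0.174 to 0.929 CPM and HSPA1B at 0.420 to 1.57 CPM over the 6 libraries, with log2 fold changes of 0.03 (SE 0.57) and −0.08 (SE 0.47). These values too turned on DMSO replicate 3, and without it they were −0.41 (SE 0.40) for HSPA1A and −0.47 (SE 0.31) for HSPA1B. HSPA2 was at or below 0.144 CPM and could not be tested. The 3 HSP110 genes, which release nucleotide from HSP70, had log2 fold changes of −1.003 (HSPA4, SE 0.46), −0.92 (HSPA4L, SE 0.35) and −0.62 (HSPH1, SE 0.43), each with overlapping groups. In HSPA4, actD replicate 3, at 357 CPM, stood far from 116 and 148 CPM in the other 2 actD libraries, and DMSO replicate 3, at 271 CPM, far from 444 and 530 CPM.

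Of the 7 J-domain genes of the cytosol, 5 had a log2 fold change below 0 at 72 h, DNAJA1 (−0.39, SE 0.33) and DNAJB1 (−0.25, SE 0.23) among them, and none of the 5 had separated groups. Of the 5 BAG genes, BAG6, which guards tail-anchored membrane proteins, was the one with separated groups, at 66.3, 69.8 and 50.2 CPM against 84.8, 91.4 and 83.4 CPM (log2 −0.48, SE 0.19, adjusted p = 0.361). BAG3 was at 7.73 to 11.2 CPM with actD and 7.85 to 13.5 CPM with DMSO. STUB1 had a log2 fold change of 0.00 (SE 0.38).

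All 8 subunits of CCT, whose ring holds 1 copy of each per layer, had RNA log2 fold changes below 0 at 72 h, from −0.79 (CCT3) to −0.34 (CCT2) with a median of −0.64, and none passed edgeR's adjusted threshold. In CCT3, CCT6A and CCT8 the groups did not overlap (3 of 8, against 10.3% of all genes lower), in the other 5 they did, and 4 subunits had an unadjusted p under 0.05 (against 13.1% of all genes). CCT3 was at 285, 295 and 340 CPM with actD and at 615, 541 and 430 CPM with DMSO, with an adjusted p of 0.268. TCP1, the alpha subunit, was at 183, 215 and 199 CPM against 385, 327 and 214 CPM (log2 −0.63, SE 0.25), so that DMSO replicate 3 stood just below the highest actD library. CCT2 was at 234, 244 and 356 CPM against 422, 340 and 294 CPM (log2 −0.34, SE 0.25).

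VCP (ENSG00000165280, chr9:35056064-35073249) had the lowest RNA log2 fold change of the 47 genes at 72 h, −1.46 (SE 0.42, adjusted p = 0.276). Its RNA was at 45.7, 58.4 and 77.7 CPM with actD and at 176, 248 and 76.2 CPM with DMSO. The highest actD library thus lay just above the lowest DMSO library, again replicate 3, and without that library the log2 fold change was −1.81 (SE 0.28, adjusted p = 0.0995).

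**Figure D3:**
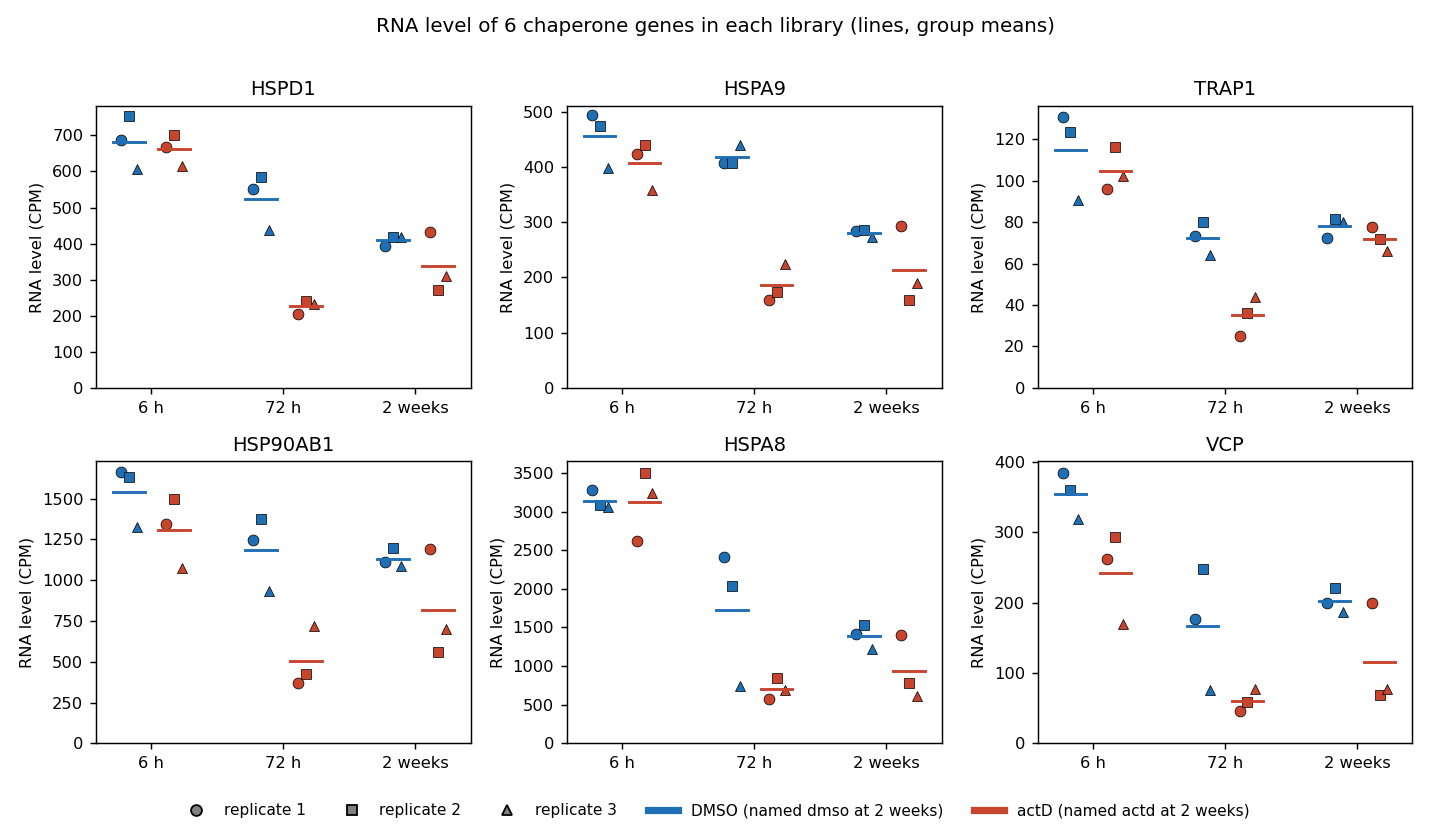
RNA level (y axis, CPM from 0) of HSPD1, HSPA9, TRAP1, HSP90AB1, HSPA8 and VCP in each library by treatment time (x axis); marker shapes give the replicate number, lines the group means, and levels compare only within a time point. At 72 h the groups are separate in HSPD1, HSPA9, TRAP1 and HSP90AB1, whereas in HSPA8 and VCP DMSO replicate 3 (741 and 76.2 CPM) lies among the actD libraries.

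Across the 47 genes, the log2 fold change at 72 h was lower the higher the mean level of the gene (Spearman's rho −0.63, Pearson's r −0.57), a relation across genes that share the same 6 libraries and are not independent. With exon length the values were −0.15 and −0.15. The 6 genes with the 3-unit heat shock element had a median log2 fold change of −1.07, and 5 of the 6 lay below 0. The 36 genes in the promoter table without it had a median of −0.43, with 29 below 0, and HSPA9, TRAP1 and VCP were among them. HSPA1A, HSPA1B and DNAJB1 were counted there too, since they held only the 2-unit form. An exact match was required, so a gene counted as without the 3-unit form may still hold a looser element. For the 2-unit form the order was the other way round, with −0.25 in the 17 genes that held it and −0.49 in the 25 that did not. No relation of the element to the change is drawn from these values.

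Whether the RNA effect differed between 72 h and 6 h was tested as an interaction over the 12 libraries. None of the 48 genes passed the adjusted threshold in edgeR, where 0.0165% of all genes did. There were 13 genes (27.1%, against 8.02% of all genes) with an unadjusted p under 0.05, all with the lower value at 72 h, and DESeq2 called HSPA9 and HSPD1, against 0.664% of all genes. DMSO replicate 3 of 72 h was singled out on these same genes. Without it, 22 of the 48 had an unadjusted p under 0.05, against 10.6% of all genes. All 22 had the lower value at 72 h. The difference between the effects was −1.19 for HSPD1 (SE 0.24, adjusted p = 0.219), −1.02 for HSPA9 (SE 0.25, adjusted p = 0.331) and −1.32 for HSPA8 (SE 0.48, adjusted p = 0.543). The median over the 48 was −0.38, beside −0.03 for all genes.

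In RNA at 72 h, the wider chaperone network was near the background. Of 67 further genes of the HSP70, HSP90, small heat shock, prefoldin, mitochondrial, VCP and tubulin folding systems, 66 could be tested in RNA at 72 h. None passed the adjusted threshold in edgeR, and 7 had an unadjusted p under 0.05 (10.6%, against 13.1% of all genes), 6 lower and 1 higher. The median log2 fold change was −0.05, with 36 genes below 0 and 30 above. The lowest p belonged to LONP1, the mitochondrial protease, at −1.07 (SE 0.26, adjusted p = 0.26). TBCD, a tubulin folding cofactor, was at −1.06 (SE 0.32), and the VCP cofactor PLAA at −0.58 (SE 0.19). The higher one was HSPB2, a small heat shock protein, at 0.72 (SE 0.30, adjusted p = 0.374). In footprints at 72 h, 12 of the 67 were tested, with a median of 0.51, beside 0.07 for all genes. Of these 12, 9 lay above 0 and 3 below, and 5 had an unadjusted p under 0.05 (41.7%, against 27.3% of all genes). In RNA, 13 of 65 had one at 2 weeks (20%, against 8.93%) and 9 of 67 at 6 h (13.4%, against 8.21%). None passed edgeR's adjusted threshold.

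In ribosome footprints at 72 h, VCP fell, and it was the 1 of 27 chaperone genes tested that passed, against 3.79% of all genes (92 of 2426). VCP had 21, 5 and 19 footprint counts in the actD libraries and 94, 65 and 4 in the DMSO libraries, the last being the shallowest library. The log2 fold change was −2.86 (SE 0.57, adjusted p = 0.0473), and on normalized levels every actD library lay below every DMSO library. The call rests on few counts. It was lost on library totals without TMM scaling (adjusted p = 0.231), in 1 fit over the 3 time points (0.0754), with the replicate number as a block (0.142), and without any 1 of the 3 actD libraries or of DMSO replicates 1 and 2 (0.0542 to 0.228). It held without DMSO replicate 3 and in DESeq2, which also called HSP90AB1, 2 of 27 genes against 4.41% of all genes.

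The other footprint values at 72 h pointed mostly the same way. The median log2 fold change of the 27 genes was −0.80, beside 0.07 for all genes, and 21 lay below 0. At an unadjusted p under 0.05 there were 8 genes, 7 lower and 1 higher, 29.6% beside 27.3% of all genes, so their number was close to the background. The groups were separate in 5 tested genes that were lower (HSPA8, HSP90AB1, HSPA9, BAG6 and VCP), against 16.2% of all genes, and in 2 that were higher (PTGES3 and BAG5), against 19.5%. Without DMSO replicate 3, a library singled out on these same genes, 20 of the 27 were lower without overlap, against 25.6% of all genes. Without actD replicate 3 there were 8, against 25% of all genes. The actD footprint libraries were deeper on average, with 631468 ± 191883 counts against 269609 ± 151686 (SD, n = 3 each), although the groups overlapped. In protein-coding counts the groups did not overlap, at 127856 to 283435 with actD and 26831 to 121227 with DMSO. Mitochondrial ribosomal RNA took 16.3% ± 4.34 of the footprint counts with actD and 6.94% ± 3.22 with DMSO (SD, n = 3 each), without overlap, from 12.4% upward with actD and up to 10.6% with DMSO. The part of depth and of this shift in the chaperone values was not tested.

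HSP90AB1 had 279, 121 and 385 footprint counts with actD and 648, 412 and 90 with DMSO, a log2 fold change of −1.72 (SE 0.44, adjusted p = 0.0704). HSPA9 had 53, 38 and 150 counts against 153, 138 and 21 (log2 −1.57, SE 0.47, adjusted p = 0.0894). HSPA8 had 178, 73 and 190 counts against 377, 294 and 24 (log2 −1.64, SE 0.54, adjusted p = 0.108). In all 3 genes the normalized groups were separate although the raw counts of the shallow DMSO replicate 3 were low. HSPD1 had a log2 fold change of −1.17 (SE 0.45), HSPH1 −1.61 (SE 0.71), HSP90AA1 −1.03 (SE 0.57), HSPB1 −1.11 (SE 0.59) and DNAJA1 −1.83 (SE 1.21). PTGES3 had 42, 27 and 75 counts with actD and 14, 13 and 2 with DMSO, a log2 fold change of 1.10 (SE 0.35, adjusted p = 0.101), and BAG5, a BAG protein of HSP70, 29, 14 and 49 against 13, 10 and 2 (log2 0.64, SE 0.33). PTGES3 was thus the gene with the highest value in both assays.

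Over the 27 genes tested in both assays at 72 h, RNA and footprint log2 fold changes had a Pearson's r of 0.68 and a Spearman's rho of 0.53, given as a description across genes. The 2 values lay both below 0 in 20 genes and had opposite signs in 5. Footprints were lower relative to RNA in 14 of the 27 on these separate fits. The fitted translational efficiency, the footprint change beyond the RNA change, lay below 0 in 19 of the 27 (70.4%, against 48.1% of all genes). Without RNA DMSO replicate 3 it did so in 16 of 27, and without footprint DMSO replicate 3 in 25 of 32. Its median with all libraries was −0.30, beside 0.03 for all genes. This median was −0.09 without RNA DMSO replicate 3 and −0.44 without footprint DMSO replicate 3. In the latter set, 4 of 32 genes had an unadjusted p under 0.05, against 17.7% of all genes. Each setting kept DMSO replicate 3 of the other assay, which stood apart too, and leaving it out of both assays was not run. These medians and the counts above therefore do not tell how stable the translational efficiency is. No chaperone gene passed in edgeR, where 0.433% of all genes did, and none in DESeq2. At an unadjusted p under 0.05 there were 2 of 27 genes (7.41%, against 14.9% of all genes), VCP at −1.61 (SE 0.68, adjusted p = 0.291) and BAG6 at −0.92 (SE 0.41, adjusted p = 0.323).

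**Figure D4:**
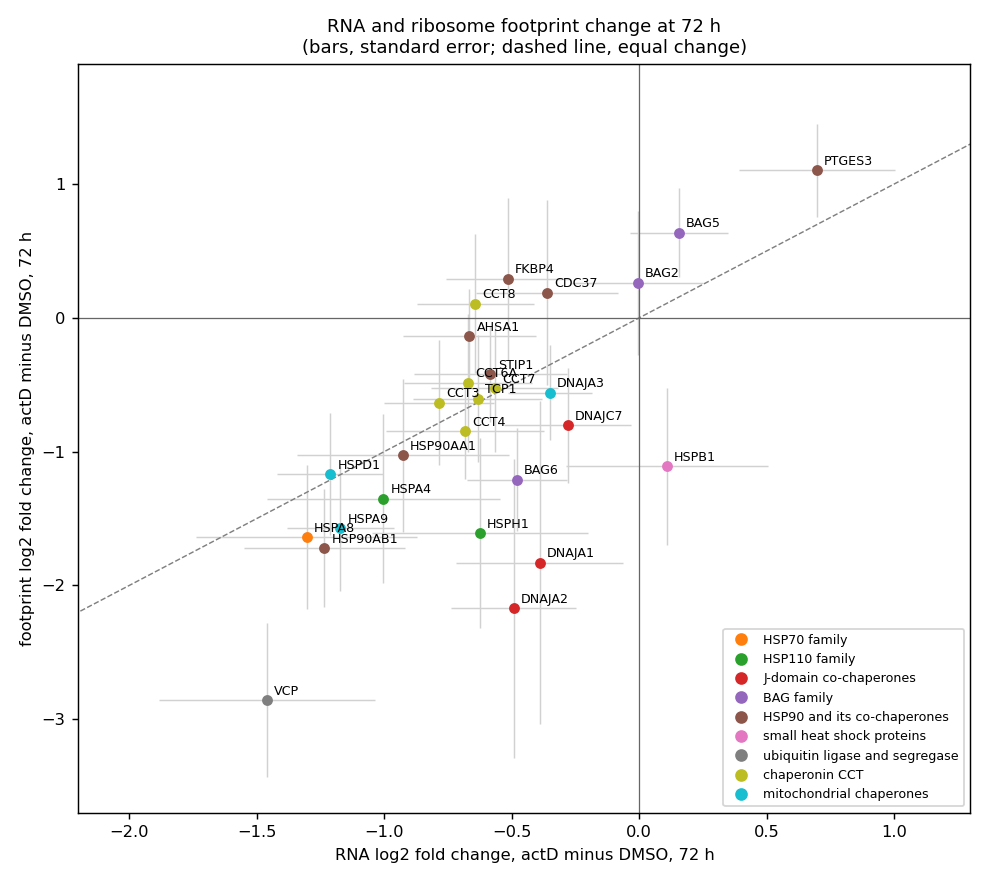
Log2 fold change at 72 h in RNA (x axis) and in ribosome footprints (y axis) of the 27 chaperone genes tested in both, colored by role, with standard errors as bars and a dashed line of equal change. In 20 genes both values lie below 0, with VCP lowest (−1.46 and −2.86), and PTGES3 lies highest (0.70 and 1.10).

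Many chaperone genes could not be followed in footprints. TRAP1 and HSPA14 were listed at 0 in all 18 footprint libraries, and CCT5 in all but 1, although CCT5 RNA was at 261 to 502 CPM at 72 h. CCT7 had 260, 0 and 0 counts in the DMSO libraries of 6 h. Such a 0 is given only as listed, not as absence of translation. HSPA1A and HSPA1B had 0 to 3 counts per footprint library at every time point, so no fold is given.

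At 6 h, 19 chaperone genes could be tested in footprints. None passed the adjusted threshold in edgeR, as in 0% of the 1212 genes tested, none had an unadjusted p under 0.05 (against 3.14% of all genes), and DESeq2 called none. In no tested gene were the groups separate in either direction (against 3.71% of all genes higher and 5.69% lower), but leaving out 1 library gave counts in both directions. Without DMSO replicate 3 there were 5 lower (against 13.9% of all genes), without actD replicate 3 there were 3 lower (against 15.3%), and without actD replicate 1 there were 3 higher (against 10.1%). The log2 fold changes ranged from −1.69 to 0.40, with standard errors of 0.47 to 2.12. The translational efficiency of these 19 likewise gave no call in edgeR (0% of all genes) or DESeq2 and no unadjusted p under 0.05 (against 5.26%). VCP had 27, 7 and 23 counts with actD and 76, 45 and 3 with DMSO (log2 −0.21, SE 0.79).

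The footprint effect at 72 h was compared with that at 6 h over 12 libraries. No chaperone gene passed in edgeR, as in 0% of all genes, or in DESeq2, and 2 of 31 had an unadjusted p under 0.05 (6.45%, against 6.54% of all genes). These were VCP, at −2.53 (SE 1.07, adjusted p = 0.733), and PTGES3, at 1.33 (SE 0.54, adjusted p = 0.733). Between 2 weeks and 72 h no gene passed either, against 0.0532% of all genes, none passed in DESeq2, and DNAJA3 alone of 30 had an unadjusted p under 0.05 (3.33%, against 7.5%), at 1.39 (SE 0.46, adjusted p = 0.546). The median of the 30 differences was 0.68, beside −0.12 for all genes, so the footprint log2 fold changes of most of these genes were higher at 2 weeks than at 72 h.

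At 2 weeks, 47 chaperone genes were tested in RNA, with the difference taken as named actd minus named dmso and tied to no treatment. None passed in edgeR, as in 0% of the 21137 genes tested, or in DESeq2, and 1 had an unadjusted p under 0.05 (2.13%, against 8.93%). The median was −0.09, beside −0.02 for all genes, and 34 of 47 lay below 0. The groups were separate in 1 gene with the higher level in the libraries named actd, FKBP5 (against 7.86% of all genes), and in 2 with the lower, HSPA1A and BAG6 (against 7.83%). FKBP5 was at 37.6, 35.3 and 38.8 CPM with the name actd and at 26.1, 26.1 and 34.0 CPM in those named dmso, a log2 fold change of 0.37 (SE 0.13, adjusted p = 0.512). FKBP5 had lain in the opposite direction at 72 h, and the difference was not tested. BAG6 was at 121, 114 and 118 CPM against 138, 121 and 135 CPM, and HSPA1A at 0.669, 0.541 and 0.409 CPM against 0.750, 1.02 and 0.816 CPM.

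At 2 weeks, VCP RNA stood at a high level in 4 libraries and at a low level in 2. Both low libraries were named actd, and replicate 1 of that name departed from them. Its RNA was at 200, 68.9 and 76.5 CPM in the libraries named actd and at 199, 221 and 187 CPM in those named dmso. Replicate 1 of the libraries named actd stood at the level of the other group, and HSPA8 (1404, 785 and 610 CPM against 1416, 1538 and 1220 CPM), HSP90AB1 (1194, 561 and 699 CPM against 1113, 1196 and 1087 CPM) and HSPA9 (293, 159 and 189 CPM against 285, 286 and 272 CPM) had the same arrangement. With all libraries, the log2 fold changes were −0.81 for VCP (SE 0.37, adjusted p = 0.574), −0.58 for HSPA8 (SE 0.29), −0.47 for HSP90AB1 (SE 0.26) and −0.39 for HSPA9 (SE 0.21). Without replicate 1 of the libraries named actd they were −1.46 for VCP (SE 0.13, adjusted p = 0.0634), −0.98 for HSPA8 (SE 0.18), −0.83 for HSP90AB1 (SE 0.15) and −0.67 for HSPA9 (SE 0.13). In that set, which leaves out a library singled out on these same genes, 22 of the 47 were lower without overlap, against 15.9% of all genes. At an unadjusted p under 0.05, 14 were lower and 3 higher, against 10.7% of all genes. Leaving out any other library gave 3 to 6 lower without overlap, against 10.5% to 17.9% of all genes. TRAP1, among the lowest genes at 72 h, was at 77.6, 71.6 and 66.2 CPM against 72.1, 81.7 and 80.0 CPM at 2 weeks (log2 −0.12, SE 0.11). HSF1, HSPA1B, HSP90AA1, HSPD1, HSPE1, HSPH1, HSPB1, DNAJA1, DNAJB1, BAG3, STIP1, STUB1, CDC37, TCP1 and CCT2 had log2 fold changes between −0.44 (HSPA1B) and 0.28 (HSPB1), with overlapping groups. Mitochondrial ribosomal RNA held 28.7% ± 2.72 of the counts of the actd libraries and 21.3% ± 1.63 of the counts of the dmso ones (SD, n = 3), and its part in these values was not tested.

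In the footprints of 2 weeks, whose labels do not conflict, 20 chaperone genes were tested. None passed in edgeR, as in 0% of the 1598 genes tested, or in DESeq2, and none had an unadjusted p under 0.05 (against 8.57%). No tested gene had separate groups in either direction (against 8.32% of all genes higher and 6.57% lower), but leaving out 1 library gave counts in both directions. Without actD replicate 1 there were 6 lower (against 17.2% of all genes), without DMSO replicate 1 there were 5 lower (against 11.8%), without DMSO replicate 3 there were 3 higher (against 19.4%) and 1 lower (against 15.5%), and without actD replicate 2 there were 2 higher (against 10.5%). The median log2 fold change was −0.31, beside 0.02 for all genes. VCP again had the lowest value, −1.09 (SE 0.61, adjusted p = 0.597), with 28, 5 and 4 counts in the actD libraries and 19, 43 and 17 in the DMSO libraries. As in the RNA libraries named actd, replicate 1 was the actD library at the level of the DMSO libraries. The translational efficiency at 2 weeks gave no call in edgeR (0% of all genes) or DESeq2 and no unadjusted p under 0.05 (against 5.14%).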

How the data were processed

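The authors deposited 1 table per assay and time point with whole-number estimated counts per gene (expected counts). The submitters' processing notes name HISAT2, StringTie and hg38, without versions given here, and the use of strand is not given in the sources used here. In the 6 h and 2-week RNA data a fragment was worth more than 1 count.

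The genes and lists were chosen with earlier results of these data known. Identifiers were matched to GENCODE release 29 (GRCh38), 99.4% without version number. Each table was fitted alone with edgeR 4.0.16 in R 4.3.3 (quasi-likelihood test, two-sided, TMM, filterByExpr, Benjamini-Hochberg over all genes tested, threshold 0.05), translational efficiency and differences between times as interactions over 12 libraries. SE came from the fold change and its F statistic. DESeq2 1.42.0, other scalings and filters, a joint fit, a replicate block and each library left out were alternatives. The fits were tested on simulated data.

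Described were genes with an adjusted p under 0.05; per comparison the 3 highest and 3 lowest with separate groups and a mean count of at least 50 (RNA) or 10 (footprints), a rule not applied to interactions; and 22 central chaperones. Any other gene was picked with its values in view. The smallest two-sided exact permutation p for 3 against 3 libraries is 0.1. Intervals from counts would cover counting error only.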

Additional observations from a re-analysis of the deposited data

Results flagged for a closer look

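FKBP5, the immunophilin that binds HSP90 in steroid receptor complexes, had RNA groups that did not overlap at 72 h and at 2 weeks, in opposite directions. The log2 fold change was −0.65 at 72 h (actD minus DMSO) and 0.37 at 2 weeks (libraries named actd minus those named dmso). The difference between these values was not tested, and the labels at 2 weeks conflict, so the sign of the second value depends on which label is right.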

How the results depend on the processing

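No chaperone gene was called in RNA at 72 h by edgeR, but 7 were in 1 fit over the 3 time points and 6 in DESeq2. In footprints at 72 h the 1 call (VCP) became 0 on library totals, in 1 fit over the 3 time points and with the replicate block, and 2 in DESeq2, with 0 to 1 when 1 library was left out. For the RNA effect at 72 h against 6 h DESeq2 called 2. The counts lower without overlap went to 22 (RNA, 6 h), 30 (RNA, 72 h), 22 (RNA, 2 weeks) and 20 (footprints, 72 h) without the library that stood apart. This alternative was chosen after seeing the data, on the values of these same genes, and is no support for a change. The median of the chaperone genes minus that of all genes in RNA at 2 weeks was 0.0707 in place of −0.0707 when the titles give the treatment, and that in translational efficiency at 2 weeks was −0.445 in place of −0.0501. In footprints at 2 weeks it was −0.33, −0.0651 in 1 fit over the 3 time points, and −0.389 to −0.0503 when 1 library was left out. At 72 h it stayed between −0.58 and −0.38 in RNA and between −1.02 and −0.68 in footprints when 1 library was left out. Of 2638 alternative values for single genes, 2615 kept their side of the threshold without a reversal. A change of sign was counted as a reversal only where either value passed the threshold or both exceeded their SE. Other changes of sign are among the 2615. In RNA at 72 h without DMSO replicate 3, HSPA1A went from 0.03 to −0.41 (SE 0.40) and HSPB1 from 0.11 to −0.26 (SE 0.17). The reversed one was CCT2 in the footprint effect at 72 h against 6 h, −3.23 without actD replicate 3 of 72 h, within a range of −3.23 to 6.56 when 1 library was left out; the cause was not tested.

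Same-numbered libraries did not deviate together throughout: at 72 h the correlations were 0.08, 0.21 and 0.14 for actD and DMSO RNA, 0.17, 0.17 and 0.41 for RNA and footprints of actD, and 0.14, 0.06 and 0.14 for those of DMSO. Since not every pair exceeded 0.1, the numbers were not taken as pairs in the translational efficiency fits either. With the replicate block no chaperone gene was called in any comparison, 0 in place of 1 in footprints at 72 h, and 0 of all genes.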
